A study of Mus musculus with 12 samples.

Results

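The genes described here are 9 transcripts that separate the main types of circulating mouse monocyte, out of 55414 gene identifiers in the counts table. The members were listed by symbol and matched to their Ensembl identifiers, and 9 of 9 were found. The classical genes were Ly6c2, Ccr2, Plac8, Chil3, F13a1 and Ms4a6c, and the patrolling genes were Cx3cr1, Nr4a1 and Spn. RNA sequencing was done on whole lung and whole liver of wild-type (WT) C57BL/6J mice 6 h after CLP or sham surgery. In this field CLP is short for cecal ligation and puncture, a model of sepsis in which gut contents leak into the abdomen. The groups were CLP lung, sham lung, CLP liver and sham liver, with 3 libraries in each of the 4 and 12 in all, and the design sets CLP against sham in each organ. All groups share the genotype and strain. Age and sex are not among the labels used here, and the labels do not say whether blood was flushed from the organs. Nor do they state that the replicate libraries are different mice, so p-values measure the spread between these libraries.

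Classical monocytes leave the bone marrow through the chemokine receptor CCR2, which binds CCL2 and CCL7, carry the surface protein Ly6C and enter inflamed tissue. Patrolling monocytes carry little Ly6C, crawl along the inside of blood vessels, hold the fractalkine receptor CX3CR1 at high level and depend on the nuclear receptor NR4A1. No member is made by monocytes alone. Chil3, a chitinase-like protein also called Ym1, is abundant in alveolar macrophages and in developing neutrophils. Nr4a1 is an immediate early gene that many stimulated cell types switch on, Spn (CD43, a surface sialoglycoprotein) is shared with T cells and neutrophils, and Cx3cr1 is also found on tissue macrophages and NK cells. In whole organs, fewer cells of a type and less RNA per cell cannot be told apart.

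Sequence bears on how far the count of 1 member can be separated from that of its neighbours. Ly6c2 and Ly6c1, a close copy that endothelial cells express, have coding sequences of 393 bases each, and 384 of the 393 positions were identical (97.7%) in the GENCODE annotation. The stretch from coding base 6 to 65 on chromosome 15 is shown because it holds 6 of the differences, which are in capitals.
Ly6c2: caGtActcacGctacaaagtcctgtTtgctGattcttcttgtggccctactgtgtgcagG
Ly6c1: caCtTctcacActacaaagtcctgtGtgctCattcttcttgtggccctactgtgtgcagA
Over whole transcripts, 14.5% of the 50-base words of Ly6c2 also occurred in another gene, Ly6c1 the first of them. The share was 26.9% for Chil3, mostly with its copy Chil4, and 51.4% for Ms4a6c, mostly with an overlapping transcript on the other strand and with Ms4a6b. It was 1.91% for Ccr2, 1.06% for Cx3cr1, 0.404% for F13a1 and 0 for Plac8, Nr4a1 and Spn. How the authors treated reads that map to several places is not given in the sources used here, so the values of Ly6c2, Chil3 and Ms4a6c are less certain than those of the other members. Exons of F13a1, Ms4a6c and Cx3cr1 overlap a non-coding transcript on the opposite strand. The library kit marks strand, but the strand setting of the counting is not given, so these reads could not be told apart from those of the partner.

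Promoters are shown for Nr4a1 and Cx3cr1, both patrolling genes, because their transcripts changed in opposite directions in lung. Each line gives the 250 bases before the start of the gene, 5′ to 3′ on the strand of the gene, from RefSeq on GRCm38.p6. Nr4a1 lies at chr15:101266596-101266845 on the plus strand, and Cx3cr1 at chr9:120068297-120068546 on the minus strand. Capitals mark TGACG, the core letters of ATF and CREB sites, read on either strand (CGTCA is its reverse complement).
Nr4a1: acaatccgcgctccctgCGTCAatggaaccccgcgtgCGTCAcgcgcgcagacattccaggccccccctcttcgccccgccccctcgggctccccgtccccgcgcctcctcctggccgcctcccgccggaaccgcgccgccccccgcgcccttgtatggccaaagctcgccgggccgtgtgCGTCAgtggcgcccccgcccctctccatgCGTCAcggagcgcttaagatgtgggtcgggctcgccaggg
Cx3cr1: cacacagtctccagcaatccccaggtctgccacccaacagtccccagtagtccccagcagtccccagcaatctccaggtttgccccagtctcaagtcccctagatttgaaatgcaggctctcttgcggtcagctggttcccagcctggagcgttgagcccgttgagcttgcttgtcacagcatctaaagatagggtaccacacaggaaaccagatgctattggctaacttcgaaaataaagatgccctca
The Nr4a1 window held 4 matches and the Cx3cr1 window none. Among the other members F13a1 alone held a match, and the members without a match rose in lung, apart from Cx3cr1. Of 32851 promoters of 300 bases (these 250 and the 50 that follow), 20.8% held at least 1 match on either strand and 0.231% held 4 or more. TGACG contains CG, and the Nr4a1 promoter was rich in G and C (72.3%, against 54.3% for Cx3cr1). A search of the same promoters for GAGGAAG, a core bound by the myeloid factor PU.1, matched those of Ly6c2 and F13a1, and 13.6% of all promoters held it. TTCNNNGAA, the STAT site, was matched in the promoter of Chil3 and in 8.30% of all. These matches are letters in a window and were not tested as sites.

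Total counts per library ran from 10559895 to 15854117. Levels are in CPM, counts relative to the library size, scaled for composition within an organ. Summed hepatocyte markers were between 105311 and 127179 CPM in CLP liver and between 83156.8 and 107820 CPM in sham liver, and summed lung epithelium markers were at 41266.3 CPM or more in every lung library. A set of 15 neutrophil markers summed to 10115.6 to 15687.5 CPM in CLP lung and 1229.56 to 1360.57 CPM in sham lung, and to 6166.13 to 7066.85 CPM in CLP liver and 1014.35 to 2584.94 CPM in sham liver. Of these markers, all 15 tested in lung and all 12 tested in liver rose after CLP, against 23.9% of all genes tested in lung and 21.4% in liver. Neutrophil transcripts thus moved with CLP in each organ, and their part in the members' changes was not tested. In the difference between the organ responses, 1 of the 15 was called higher and 1 lower, with a median of -0.19, where 8.89% and 8.84% of all genes were called. The most abundant of them were S100a9, a calcium-binding protein of neutrophils, and Lcn2, an iron-scavenging protein. S100a9 averaged 3858 ± 720 CPM in CLP lung and 390 ± 39.9 CPM in sham lung, and 88.5 ± 17.2 CPM in CLP liver and 5.65 ± 0.548 CPM in sham liver (SD, n = 3 each). Lcn2, which hepatocytes also make, came to 6389 ± 411 CPM in CLP liver and 1729 ± 789 CPM in sham liver and so made up most of the liver sums.

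In the lung, 8 of the 9 members rose after CLP and 1, Cx3cr1, fell. All 6 classical genes rose, and so did 2 of the 3 patrolling genes. Across all 15441 genes tested in lung, 23.9% were called higher and 24.9% lower in the quasi-likelihood test of edgeR (Benjamini-Hochberg adjusted p under 0.05). The median log2 fold change was 2.91 over the 6 classical genes and 2.90 over the 3 patrolling genes, against -0.03 over all genes tested. CLP and sham libraries did not overlap for any of the 9. The share of all tested genes without such overlap was not computed, so this only describes the members.

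**Figure D1:**
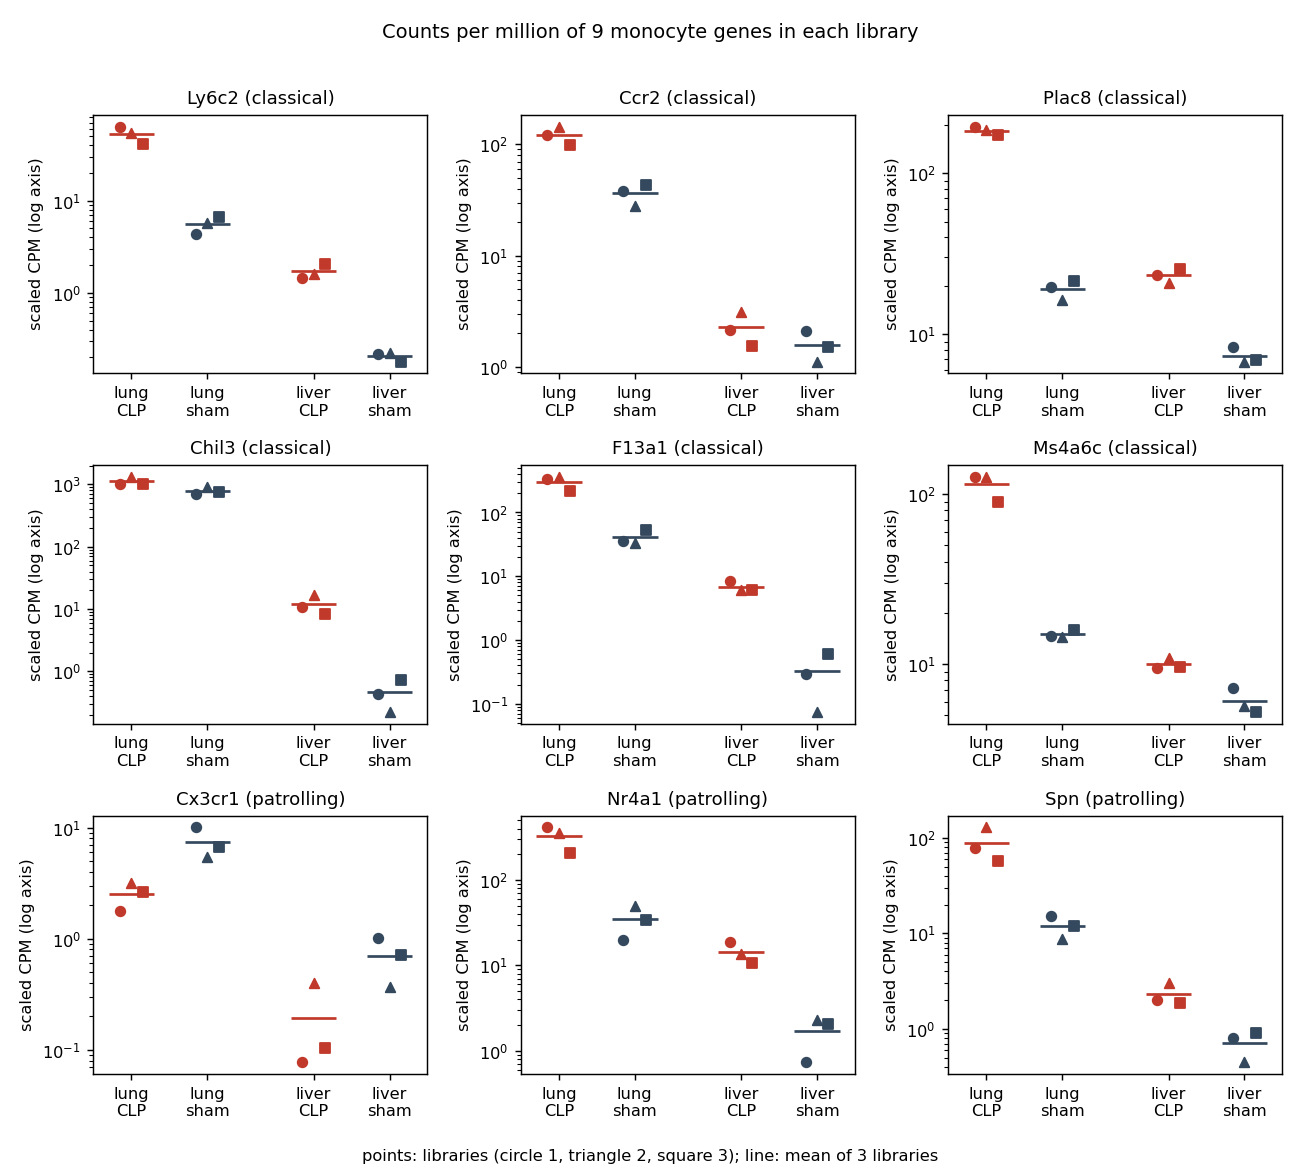
Scaled CPM (log axis) of the 9 members in each library, with CLP libraries in red left of sham libraries in dark blue, lung left of liver, a point per library and a line at the mean of 3. In lung the CLP and sham libraries do not overlap in any panel, and Cx3cr1 is the panel where CLP lies below sham, at 1.79 to 3.16 CPM against 5.39 to 10.1 CPM. In liver the groups overlap for Ccr2 and Cx3cr1. The share of all genes without overlap was not computed.

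Ly6c2, which encodes the Ly6C antigen used to sort classical monocytes (ENSMUSG00000022584), stood at 63.5, 54.1 and 41.1 CPM in CLP lung and at 4.39, 5.76 and 6.72 CPM in sham lung. Every CLP library was far above every sham library, and the log2 fold change was 3.23 ± 0.21 (standard error; edgeR adjusted p = 5.03e-05). Its near copy Ly6c1 was much more abundant in lung and rose less. Ly6c1 had 788, 745 and 846 CPM in CLP lung and 464, 541 and 394 CPM in sham lung, a log2 fold change of 0.77 ± 0.13 (edgeR adjusted p = 0.00179). There were 12.4 to 20.6 counts of Ly6c1 for each of Ly6c2 in CLP lung and 58.6 to 106 in sham lung. When the counts of near copies were summed, the value that holds Ly6c2 was 0.84 in lung, still past the threshold.

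Plac8 (ENSMUSG00000029322), a small cysteine-rich protein of myeloid cells, gave the lowest p of all 15441 genes tested in lung. It had 195, 185 and 173 CPM in CLP lung and 19.6, 16.4 and 21.4 CPM in sham lung, so replicates lay close together and the groups far apart (log2 fold change 3.27 ± 0.11, edgeR adjusted p = 8.36e-06). Ms4a6c (ENSMUSG00000079419), a membrane protein with 4 spans of the MS4A family, had 126, 125 and 89.9 CPM in CLP lung and 14.6, 14.4 and 15.9 CPM in sham lung. Its sham libraries were nearly level, and the log2 fold change was 2.93 ± 0.14 (edgeR adjusted p = 1.57e-05). F13a1 (ENSMUSG00000039109), the A subunit of clotting factor XIII, had 337, 360 and 216 CPM in CLP lung and 35.3, 33.5 and 53.9 CPM in sham lung (2.90 ± 0.26, edgeR adjusted p = 0.000209). The lowest CLP library of F13a1 was still well above the highest sham library. Platelets carry F13a1 too, and 9 platelet markers summed to 44.7 to 75.7 CPM in CLP lung and 29.0 to 38.1 CPM in sham lung. Of these, 3 of 7 tested were called higher, against 23.9% of all genes, among them Itga2b, an integrin subunit, and Ppbp, a platelet chemokine. The part of platelets in the F13a1 values was not tested.

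Ccr2 (ENSMUSG00000049103), the receptor through which classical monocytes enter blood and tissue, had 122, 145 and 98.6 CPM in CLP lung and 38.1, 27.7 and 43.1 CPM in sham lung. The groups did not overlap, and the log2 fold change was 1.74 ± 0.19, beside 2.90 to 3.27 for the 4 classical genes above (edgeR adjusted p = 0.000424). Chil3 (ENSMUSG00000040809) was already the most abundant member in sham lung and changed least. It had 1019, 1318 and 1010 CPM in CLP lung and 706, 913 and 743 CPM in sham lung, so the lowest CLP library was above the highest sham library by a small margin (0.50 ± 0.15, edgeR adjusted p = 0.0215). This call ended in edgeR with upper-quartile scaling (adjusted p = 0.0576), library totals alone (0.0512), all 12 libraries in 1 fit (0.0943), without sham replicate 1 (0.0918) and without sham replicate 3 (0.0686). The 13 alveolar macrophage markers summed to 645 to 707 CPM in CLP lung and 664 to 769 CPM in sham lung. Of these, 2 were called higher and 4 lower, where 23.9% and 24.9% of all genes were called. Their most abundant genes were the mannose receptor gene Mrc1 and the carbonic anhydrase gene Car4. Each library held 8.38 to 10.2 counts of Chil3 for each of Ccr2 in CLP lung and 17.2 to 33.0 in sham lung. Chil4, the copy of Chil3, had 6, 5 and 5 counts in CLP lung and 4, 1 and 1 in sham lung.

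Cx3cr1 (ENSMUSG00000052336), the fractalkine receptor, was the least abundant member in lung per length of transcript and the one that fell. It had 23, 39 and 29 counts in CLP lung and 124, 72 and 90 in sham lung, which came to 1.79, 3.16 and 2.64 CPM and to 10.1, 5.39 and 6.72 CPM. The highest CLP library was below the lowest sham library, and the log2 fold change was -1.55 ± 0.30 (edgeR adjusted p = 0.00351). Over the alternatives tried it lay between -1.73 and -1.26 and kept its side of the threshold. Markers of NK cells, another source of Cx3cr1, summed to 68.7 to 81.0 CPM in CLP lung and 12.1 to 24.9 CPM in sham lung. Of these, 5 of 10 were called higher and 0 lower, where 23.9% and 24.9% of all genes were called. The granzyme genes Gzma and Gzmb were the most abundant NK cell markers, at 21.5 ± 1.46 and 21.7 ± 4.86 CPM in CLP lung and 5.01 ± 2.24 and 1.48 ± 0.562 CPM in sham lung (SD, n = 3 each). Both were called higher, as were Prf1, Klrb1c and Klrk1, while Ncr1, Klra8, Klre1, Eomes and S1pr5 were not called. The part of NK cells in the Cx3cr1 values was not tested.

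Nr4a1 (ENSMUSG00000023034), the nuclear receptor needed by patrolling monocytes, went the other way. It had 416, 360 and 205 CPM in CLP lung and 19.6, 50.3 and 34.4 CPM in sham lung, with a wide spread inside both groups and no overlap between them (3.23 ± 0.41, edgeR adjusted p = 0.00105). Of its family, Nr4a2 stood at 10.2 ± 1.86 CPM in CLP lung and 10.2 ± 3.45 CPM in sham lung (SD, n = 3 each; log2 fold change -0.01 ± 0.26), and did not pass the test (edgeR adjusted p = 0.981). Its sign flipped in other fits, and Nr4a3, chosen after its values were seen, stood at 0.74 ± 0.40. Spn (ENSMUSG00000051457) had 79.0, 129 and 57.5 CPM in CLP lung and 15.2, 8.68 and 11.9 CPM in sham lung. All 3 CLP libraries of Spn were above sham, though relative to their mean they varied more than those of any classical gene (2.90 ± 0.35, edgeR adjusted p = 0.000764). The 10 T cell markers summed to 63.9 to 99.4 CPM in CLP lung and 20.8 to 30.6 CPM in sham lung. Of these, 8 of 10 were called higher, against 23.9% of all genes, including Il7r, the interleukin-7 receptor chain, and Trac, the T cell receptor alpha constant gene.

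In the liver the members were far less abundant, and 7 of the 8 tested rose. Of 12392 genes tested in liver, 21.4% were called higher and 21.0% lower by the same test. The median log2 fold change was 2.33 over the 6 classical genes and 2.37 over the 2 patrolling genes tested, against -0.01 over all genes tested. Ccr2 did not pass the test, and Cx3cr1 had too few counts to enter it.

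**Figure D2:**
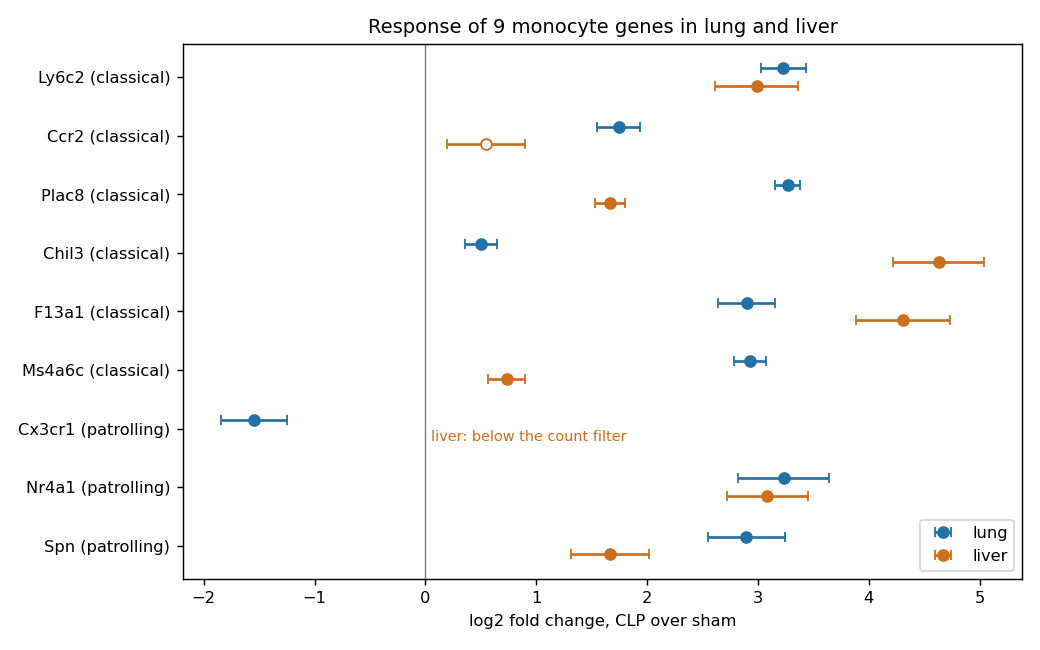
Log2 fold change, CLP over sham, of each member in lung (blue) and liver (orange), with bars of 1 standard error and filled points for an edgeR adjusted p under 0.05. Chil3 lies at 0.50 in lung and 4.63 in liver, while Plac8 and Ms4a6c lie further right in lung, and Cx3cr1 at -1.55 in lung is the member left of 0.

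The largest changes among the members in liver were those of Chil3 and F13a1. Chil3 had 10.8, 16.8 and 8.22 CPM in CLP liver and 0.436, 0.222 and 0.718 CPM in sham liver, a log2 fold change of 4.63 ± 0.41 (edgeR adjusted p = 0.000135). F13a1 had 8.39, 6.02 and 6.16 CPM in CLP liver and 0.291, 0.0741 and 0.599 CPM in sham liver (4.31 ± 0.42, edgeR adjusted p = 0.000177). Sham liver held little of either gene, with 3 to 12 counts of Chil3 and 1 to 10 of F13a1 per library, so the size of the change rests on few counts, and F13a1 was at 5.15 without sham replicate 3.

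Lung epithelium markers were themselves higher in CLP liver, at 32.3 to 54.8 CPM against 4.89 to 8.73 CPM in sham liver. All 8 of these markers tested were called higher, against 21.4% of all genes tested in liver. The share of lung RNA estimated from the median of these markers was 0.0668% to 0.122% of CLP liver libraries and 0.00684% to 0.0218% of sham liver libraries. At that share lung RNA would give 9.57 to 13.9 of the 80 to 209 counts of Chil3 in CLP liver, and 0.740 to 2.55 of the 3 to 12 counts in sham liver. For F13a1 it would give 2.61 to 3.78 of the 60 to 109 counts in CLP liver. With this share subtracted, the log2 fold change was 4.97 for Chil3 and 4.25 for F13a1, as large as without the subtraction to within 1 standard error.

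Ly6c2 had 1.46, 1.60 and 2.05 CPM in CLP liver and 0.218, 0.222 and 0.180 CPM in sham liver (2.99 ± 0.37, edgeR adjusted p = 0.000471). These came from 19 to 20 counts per CLP library and 3 per sham library, a ratio of 7.17 with a 95% exact interval of 3.53 to 16.5 for counting error only. Ly6c1 was as scarce as Ly6c2 in liver, at 0.474 to 0.650 counts per count of Ly6c2 in CLP liver and 0.667 to 1.67 in sham liver. Plac8 had 23.2, 20.9 and 25.5 CPM in CLP liver and 8.29, 6.75 and 6.88 CPM in sham liver, again with tight replicates (1.67 ± 0.14, edgeR adjusted p = 8.13e-05). Ms4a6c changed least among the called members. It had 9.46, 10.8 and 9.65 CPM in CLP liver and 7.20, 5.63 and 5.21 CPM in sham liver (0.73 ± 0.17, edgeR adjusted p = 0.00815), and with library totals alone edgeR gave an adjusted p = 0.0503.

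Ccr2 had 2.15, 3.13 and 1.54 CPM in CLP liver and 2.11, 1.11 and 1.497 CPM in sham liver. The groups overlapped, and the log2 fold change of 0.55 ± 0.35 did not pass the test (edgeR adjusted p = 0.238, and 0.137 to 0.614 over the alternatives). Cx3cr1 had 1, 5 and 1 counts in CLP liver and 14, 5 and 12 in sham liver. CLP replicate 2 and sham replicate 2 were level, at 0.401 and 0.371 CPM, and the others lay apart. The ratio of the summed counts was 0.247 with a 95% exact interval of 0.0918 to 0.572 for counting error only. Fitted without the count filter, Cx3cr1 was at -1.78 ± 0.66 (edgeR adjusted p = 0.0350), and DESeq2 gave an adjusted p = 0.128. In limma-voom the adjusted p = 0.0610, and in edgeR it was 0.180 without CLP replicate 1, 0.128 without CLP replicate 3, 0.182 without sham replicate 1 and 0.0758 without sham replicate 3. The direction in liver was thus that of lung in each of these fits, but the call depended on the fit.

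Nr4a1 had 18.8, 13.6 and 10.8 CPM in CLP liver and 0.727, 2.30 and 2.04 CPM in sham liver (3.08 ± 0.37, edgeR adjusted p = 0.000522). Spn had 2.00, 3.05 and 1.85 CPM in CLP liver and 0.800, 0.445 and 0.898 CPM in sham liver (1.66 ± 0.36, edgeR adjusted p = 0.00627). Neither gene overlapped between groups. The resident macrophage background moved as well, since 10 Kupffer cell markers summed to 393 to 492 CPM in CLP liver and 531 to 614 CPM in sham liver. Of these, 1 of 9 tested was called higher and 5 lower, where 21.4% and 21.0% of all genes were called. Among the most abundant Kupffer cell markers, the lectin gene Clec4f fell by 0.64 on the log2 scale. The complement gene C6 stood at -0.16 ± 0.29, which did not pass the test.

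Whether a member responded differently in the organs was tested directly, with the liver response taken from the lung response in 1 model of all 12 libraries. Of 16111 genes tested, 8.89% were called higher and 8.84% lower. Among the members 2 were called higher and 1 lower. Plac8 rose more in lung than in liver, by 1.58 ± 0.17 (edgeR adjusted p = 7.26e-05), and so did Ms4a6c, by 2.16 ± 0.22 (edgeR adjusted p = 4.57e-05). Chil3 rose less in lung than in liver, with a difference of -4.17 ± 0.44 (edgeR adjusted p = 7.26e-05), from a sham level of 787 ± 111 CPM in lung and 0.459 ± 0.249 CPM in liver (SD, n = 3 each).

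The other members did not pass the test of the difference. Ccr2 was at 1.16 ± 0.41 (edgeR adjusted p = 0.0678), and it passed in DESeq2 (adjusted p = 0.0223) and in edgeR without liver CLP replicate 2 (0.0301), without liver sham replicate 2 (0.0446) or without lung CLP replicate 3 (0.0401). F13a1 was at -1.45 ± 0.61 (edgeR adjusted p = 0.131, DESeq2 adjusted p = 0.0292), and it was at -2.27 without liver sham replicate 3 and -0.96 without liver sham replicate 2. Spn was at 1.20 ± 0.62, Ly6c2 at 0.20 ± 0.63, Cx3cr1 at 0.23 ± 0.73 and Nr4a1 at 0.12 ± 0.66, with edgeR adjusted p of 0.221, 0.897, 0.898 and 0.962. The standard errors leave room for differences of more than 1 on the log2 scale for each of these 4. With near copies summed, the value that holds Ly6c2 was -1.72 (edgeR adjusted p = 0.00209), a sum made up mostly of Ly6c1 in lung.

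Levels of different genes were compared as CPM per kilobase of merged exon. In CLP lung the order was Chil3 at 684 ± 107 (SD, n = 3 here and below), Plac8 at 116 ± 7.01, Nr4a1 at 93.2 ± 31.1, Ms4a6c at 55.4 ± 10.0, F13a1 at 45.2 ± 11.5, Ly6c2 at 19.3 ± 4.10, Spn at 18.9 ± 7.89, Ccr2 at 18.0 ± 3.40 and Cx3cr1 at 0.561 ± 0.153 CPM per kilobase. Plac8 and Nr4a1 lay within the spread of Nr4a1, Ms4a6c lay within the spread of F13a1, and Ly6c2, Spn and Ccr2 could not be ordered. In sham lung Chil3 again came first, at 482 ± 67.8, with Plac8 next at 12.02 ± 1.60 and Cx3cr1 last at 1.64 ± 0.537 CPM per kilobase. Ly6c2, at 2.05 ± 0.427 in sham lung, was within the spread of Cx3cr1 there, whereas in CLP lung these genes stood far apart.

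In CLP liver Plac8 was first at 14.6 ± 1.42, followed by Chil3 at 7.30 ± 2.69, Ms4a6c at 4.87 ± 0.362 and Nr4a1 at 4.10 ± 1.15 CPM per kilobase, of which the last 3 overlapped in spread. F13a1 (1.02), Ly6c2 (0.623), Spn (0.491), Ccr2 (0.336) and Cx3cr1 (0.0430 CPM per kilobase) were lower. In sham liver Plac8 at 4.59 ± 0.537 and Ms4a6c at 2.93 ± 0.512 stood above the other 7, which were all at 0.481 CPM per kilobase or lower, and F13a1 was last at 0.0477 ± 0.0391. In sham liver Ly6c2, at 0.0754 ± 0.00861 CPM per kilobase, was within the spread of F13a1.

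The balance of the gene types was described for each library as the mean log2 CPM of the 6 classical genes minus that of the 3 patrolling genes. It was 2.31, 1.96 and 2.26 in CLP lung and 1.17, 1.27 and 1.49 in sham lung. In liver it was 1.79, 1.36 and 1.91 with CLP and 0.612, 0.184 and 0.267 with sham. In both organs every CLP library was above every sham library. This score averages a fall of Cx3cr1 with rises of Nr4a1 and Spn, so it is smaller than the contrast of the receptors alone. Nr4a1 and Spn rose by 3.23 and 2.90 in lung, beside a classical median of 2.91. In liver they rose by 3.08 and 1.66, beside a classical median of 2.33. Their rises were of the size of the classical ones, so the higher score after CLP rests largely on Cx3cr1 and does not describe the patrolling genes as a set. The receptors gave 68.0, 45.8 and 37.3 counts of Ccr2 per count of Cx3cr1 in CLP lung and 3.78, 5.14 and 6.41 in sham lung. In liver there were 28, 7.80 and 15 in CLP libraries and 2.07, 3.00 and 2.08 in sham libraries, on 1 to 5 counts of Cx3cr1 after CLP.

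**Figure D3:**
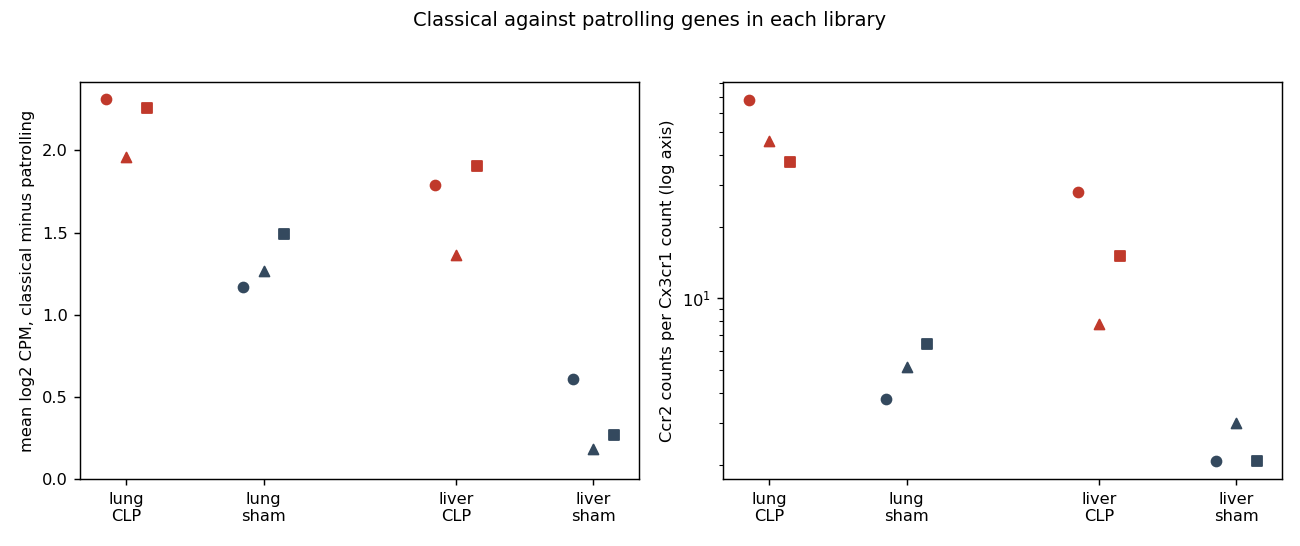
Left, mean log2 CPM of the 6 classical genes minus that of the 3 patrolling genes in each library; right, Ccr2 counts per Cx3cr1 count (log axis), with CLP in red left of sham in dark blue. In lung the ratio is 37.3 to 68.0 with CLP and 3.78 to 6.41 with sham, and in both panels and both organs the CLP libraries lie above the sham libraries.

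The patrolling genes did not move together. In CLP lung there were 232, 114 and 77.8 counts of Nr4a1 per count of Cx3cr1, against 1.94, 9.33 and 5.12 in sham lung. For Spn the ratios were 44.2, 41.0 and 21.8 in CLP lung and 1.51, 1.61 and 1.78 in sham lung. The sham ratios of Spn to Cx3cr1 were nearly constant while those of Nr4a1 varied severalfold. Over the 12 libraries with the organ mean removed, Pearson's r of log2 CPM was -0.89 between Nr4a1 and Cx3cr1, -0.63 between Spn and Cx3cr1 and 0.85 between Spn and Nr4a1. All points share the contrast of CLP with sham, so these values describe that contrast, and no p is given. Among the classical genes, Chil3 was at 0.34 with Ms4a6c, 0.39 with Ccr2, 0.52 with Plac8, 0.68 with Ly6c2 and 0.87 with F13a1, and Plac8 and Ms4a6c were at 0.97.

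By the same measure, among 7511 genes expressed in both organs, the patterns nearest to Ccr2 were those of Grk6, a kinase of G protein-coupled receptors (0.96), Nckap1l, an actin regulator of blood cells (0.96), and Gclc, an enzyme of glutathione synthesis (0.96). Nearest to Cx3cr1 were Cep68, a centrosomal protein (0.96), the zinc finger gene Zkscan8 (0.95) and Ints3, a subunit of the Integrator complex (0.94). In liver the Cx3cr1 pattern rests on 1 to 14 counts per library. Nearest to Nr4a1 were Pvr, an adhesion receptor (0.98), Zfp36, which promotes decay of cytokine mRNAs (0.98), and Ppp2ca, a catalytic subunit of protein phosphatase 2A (0.97).

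Ligands of the monocyte receptors changed in both organs. Of 7 ligand genes, 4 of 6 tested in lung rose and 1 fell, and 4 of 5 tested in liver rose. Of all genes tested, 23.9% were called higher and 24.9% lower in lung, and 21.4% and 21.0% in liver. Ccl2, the main ligand of CCR2, had 23.7, 14.2 and 10.4 CPM in CLP lung and 0.325, 0.0749 and 0.224 CPM in sham lung (6.23 ± 0.51, edgeR adjusted p = 0.000121). In liver Ccl2 had 19.1, 6.66 and 9.34 CPM after CLP and 0.364, 0.296 and 0.419 CPM after sham (4.98 ± 0.53, edgeR adjusted p = 0.000338). Sham libraries of both organs held 1 to 7 counts of Ccl2, so these fold changes are imprecise.

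Ccl7, a second CCR2 ligand, had 148 counts over the CLP lung libraries and 2 over the sham lung libraries, a ratio of 74.2 with a 95% exact interval of 20.2 to 619 for counting error only. In liver it had 143 and 4 counts over CLP and sham libraries, a ratio of 39.1 (14.9 to 145). Ccl12, also a CCR2 ligand, rose in lung (2.96 ± 0.52, edgeR adjusted p = 0.00216) and had 5 counts over CLP and 2 over sham libraries of liver. Csf1, the growth factor of monocytes and macrophages, rose in liver by 0.93 ± 0.19 and, chosen after its value was seen, in lung by 1.27 ± 0.25.

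Cx3cl1, fractalkine, is the ligand of CX3CR1 and fell in lung together with its receptor. It had 33.4, 36.6 and 36.7 CPM in CLP lung and 46.8, 44.1 and 50.8 CPM in sham lung, a small change with no overlap (-0.41 ± 0.09, edgeR adjusted p = 0.00504). In liver it had 1.62, 1.60 and 0.719 CPM after CLP and 0.800, 0.296 and 0.479 CPM after sham, and the groups overlapped (1.34 ± 0.46, edgeR adjusted p = 0.0445). That liver call ended in several alternatives, DESeq2 (adjusted p = 0.0620) and edgeR with upper-quartile scaling (0.0607), library totals alone (0.0815) or a library left out (up to 0.130) among them. The difference in response between organs was -1.80 ± 0.38 (edgeR adjusted p = 0.00570).

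Other receptors of monocytes were also examined. Ccr1, a receptor for several inflammatory chemokines, rose in both organs, by 2.59 ± 0.15 in lung and 3.92 ± 0.42 in liver. Ackr1, a chemokine scavenger of venules and red cells, was at 5.20 ± 0.46 in lung and 2.61 ± 0.42 in liver, and its exons overlap Cadm3 on the same strand, so its reads are uncertain. Csf1r, the receptor for CSF1, fell by 0.72 in liver and was at 0.39 ± 0.10 in lung (edgeR adjusted p = 0.0144). The lung call ended in edgeR with upper-quartile scaling (adjusted p = 0.0527), library totals alone (0.0508), without sham replicate 1 (0.0616) and without sham replicate 2 (0.0641).

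Of 20 other genes of classical monocytes, 17 of 20 tested rose in lung and 11 of 18 tested rose in liver, and 0 fell in either, against 23.9% and 21.4% of all genes called higher in lung and liver. Their medians were 2.27 in lung and 1.21 in liver. In lung those with the lowest p were Ifi204, an interferon-induced DNA sensor, with 131 ± 12.3 CPM in CLP lung and 6.21 ± 1.44 CPM in sham lung (SD, n = 3 each; 4.40 ± 0.16), Gda, guanine deaminase (2.37 ± 0.09), and the IgG receptor gene Fcgr1 (3.09 ± 0.15). Lyz2, lysozyme, was at -0.10 ± 0.11 in lung and did not pass the test. In liver the lowest p belonged to Ccl9, a chemokine of myeloid cells (1.79 ± 0.11), Cd14, a receptor for lipopolysaccharide (6.20 ± 0.37), and Mpeg1, perforin-2 of macrophages (1.28 ± 0.09). Clec4a3, a C-type lectin, was at -0.35 ± 0.37 and did not pass. Each of the called genes had an edgeR adjusted p of at most 5.38e-05.

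Of 20 other genes linked to patrolling monocytes, 9 of 19 tested rose and 2 fell in lung, and 6 of 18 rose and 4 fell in liver. Over all genes tested, 23.9% were called higher and 24.9% lower in lung, and 21.4% and 21.0% in liver, so the share of this list called lower in liver was near that of all genes. The median was 0.74 in lung and 0.28 in liver, and over all genes tested it was -0.03 and -0.01. In lung the lowest p belonged to Fcgr4, an IgG receptor (2.58 ± 0.13), Cd274, the PD-L1 checkpoint ligand (3.40 ± 0.18), and Pou2f2, a transcription factor of B and myeloid cells (4.11 ± 0.32), and Ear2, an eosinophil-associated ribonuclease, fell by 0.72. Ear2 is also on the list of alveolar macrophage markers, and the other gene of the patrolling list that fell in lung was Ace. Many cells switch on Cd274 after interferon. In liver S1pr5, a sphingosine-1-phosphate receptor that NK cells share, had 0.340 ± 0.128 CPM after CLP and 3.85 ± 0.764 CPM after sham (SD, n = 3 each; fell by 3.47, edgeR adjusted p = 0.000197). Cd274 (3.96 ± 0.35) and Pglyrp1, a peptidoglycan-binding protein of neutrophil granules (3.99 ± 0.48), rose in liver. S1pr5 and Cd274 exons overlap non-coding transcripts on the opposite strand.

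Nr4a1 belongs to the immediate early genes, of which 14 others were examined. In lung 11 of 14 rose, with a median of 1.04, and in liver all 9 tested rose, with a median of 2.06. Of all genes tested, 23.9% were called higher in lung and 21.4% in liver. Nr4a1, at 3.23 in lung and 3.08 in liver, was above both medians. In lung the lowest p belonged to Ier2 (1.41 ± 0.15), Junb (2.37 ± 0.22), whose exons overlap Prdx2 on the other strand, and Fos (1.91 ± 0.23), the last 2 being AP-1 subunits. In liver it belonged to the transcription factor gene Klf6 (2.10 ± 0.13), Ier3, a survival gene (5.35 ± 0.36), and Atf3, a stress-induced factor of the ATF family (2.65 ± 0.23). The part of immediate early induction in the Nr4a1 rise was not tested.

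**Figure D4:**
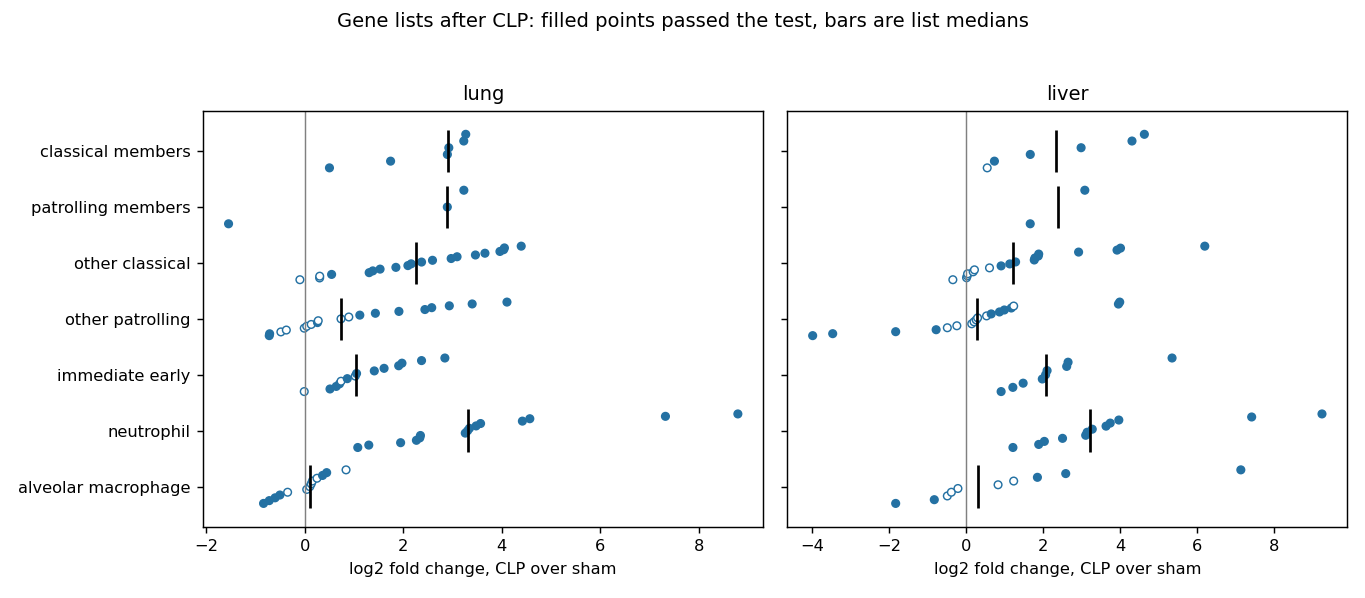
Log2 fold change, CLP over sham, of the tested genes of 7 lists in lung (left) and liver (right), with filled points for an edgeR adjusted p under 0.05 and a black bar at the median of each list. The other patrolling genes spread on both sides of 0, with medians of 0.74 in lung and 0.28 in liver, the other classical genes lie mostly right of 0, with medians of 2.27 and 1.21, and all tested neutrophil markers lie right of 0 in both organs.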

How the data were processed

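The deposited values are whole-number read counts per gene, not normalized, made by the authors for 12 libraries in 1 table. Per the submitters' processing notes, STAR 2.7.10a, featureCounts, FastQC, DESeq2 and the build mm39 were used; the sources used here give no strand setting, annotation or multi-mapping rule. Per the labels' protocols, a stranded TruSeq kit and a NextSeq500 were used. Counts were tested with edgeR 4.0.16 (R 4.3.3): filter by group (minimum count 10, minimum total 15), trimmed mean of M values scaling, robust quasi-likelihood test, 6 libraries per organ, and all 12 for the difference between organs. P-values are two-sided and Benjamini-Hochberg adjusted over all genes tested, threshold 0.05. The standard error is the log2 fold change divided by the square root of F, an approximation. CPM use scaled library sizes; per-library scores scale all 12 libraries together with a prior count of 2.

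Replicate pairs differed by more than sampling noise (chi-square 5.28 to 37.6 per degree of freedom). GENCODE M21 (GRCm38) served for exon lengths, overlaps and shared 50-base words; coordinates are printed for RefSeq GRCm38.p6 promoters alone. The members and the 20 gene lists were chosen with earlier results of these data known. Named from the lists were, per organ, the 3 genes with the lowest p and the lowest-p gene against the majority; from marker lists, the 2 most abundant; and a set of near copies and ligands. Not every gene so chosen is reported here. Alternatives were DESeq2 1.42.0, limma-voom 3.58.1, other scalings, no filter, all libraries in 1 fit, a replicate block, near copies summed, lung share subtracted and each library left out. Near copies were summed for Ly6c2 with Ly6c1 and Chil3 with Chil4, and not for Ms4a6c. The fits were tested on simulated data.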

Additional observations from a re-analysis of the deposited data

Results flagged for a closer look

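The responses of 3 members differed between lung and liver when the difference itself was tested in 1 model of all 12 libraries. For Plac8 the lung response exceeded the liver response by 1.58 ± 0.17 on the log2 scale (edgeR adjusted p = 7.26e-05), and it stayed between 1.47 and 1.70 over the alternatives. For Ms4a6c the difference was 2.16 ± 0.22 (edgeR adjusted p = 4.57e-05), between 2.08 and 2.31 over the alternatives. None of these summed Ms4a6c with the genes that share its sequence, so that range does not cover reads shared with them. For Chil3 it was -4.17 ± 0.44 (edgeR adjusted p = 7.26e-05), between -4.63 and -3.77. Each of the 3 rose in both organs, so the difference is one of size, and the rise of Chil3 in lung was itself lost in 5 alternatives.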

How the results depend on the processing

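Over the alternatives tried, 119 of 120 member values in liver and 121 of 126 in lung kept their direction and their side of the threshold. Those that did not are Ms4a6c in liver with library totals and the 5 named for Chil3 in lung. The liver values leave out Cx3cr1, which was below the count filter in the main fit and whose call depended on the fit. In liver the count of members called lower was 1, Cx3cr1, without the low-count filter and with all 12 libraries in 1 fit, and 0 to 1 with a library left out, against 0. Of all genes in liver, 1689 were called higher and 3796 lower with library totals alone, where the median gene moved to -0.21, against 2647 and 2600. With upper-quartile scaling the liver counts were 2122 and 3144 (median -0.11), and in lung they were 2929 and 4946 (median -0.14), with 2977 and 4847 under library totals (median -0.13), against 3698 and 3850. For the difference between organs, library totals gave 1861 higher and 965 lower (median 0.12), against 1432 and 1424. Members called lower there numbered 2 in DESeq2 and with near copies summed, against 1. For that difference, 159 of 171 member values kept direction and side, 5 came past the threshold and 7 changed sign. Ly6c2 changed sign, to -1.72, with near copies summed. With a library left out, it ran from -0.13 to 1.42 for Cx3cr1 and from -0.17 to 0.54 for Nr4a1, neither called. Nr4a2 in lung was at 0.023 in DESeq2, 0.026 in limma-voom and 0.031 with the replicate block, and -0.26 to 0.18 with a library left out. The causes were not tested.

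Libraries with the same number are not said to be paired. Deviations of CLP and sham libraries with the same number correlated at 0.061 to 0.20 in liver and 0.033 to 0.14 in lung. With different numbers the range was -0.17 to 0.028 in liver and -0.098 to 0.049 in lung. Between lung and liver, CLP libraries of the same number gave 0.095 to 0.30, and others -0.23 to 0.040. Sham libraries gave -0.033 to 0.12 and -0.11 to 0.062. Whether organs came from the same mouse was not tested, and the difference between organs was fitted with all 12 libraries as separate. A replicate block set within each organ gave 2649 higher and 2596 lower genes in liver, 3344 and 3526 in lung, and 1267 and 1284 for the difference between organs, and changed no member's call. Without the filter, edgeR with the replicate block gave Cx3cr1 in liver an adjusted p of 0.0550. Few counts limit Cx3cr1, Ly6c2 and Ccr2 in liver.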

Other observations

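Markers of other cell types that a whole organ holds went different ways. In lung, 6 of 9 tissue macrophage markers were called higher and 1 lower, with sums of 479 to 593 CPM after CLP and 447 to 483 CPM after sham. In liver 1 of 9 was called higher and 5 lower, with sums of 177 to 244 CPM after CLP and 293 to 305 CPM after sham. Mertk, an engulfment receptor, had 79.9 ± 10.4 CPM in CLP lung and 156 ± 25.3 CPM in sham lung (SD, n = 3 each), and the complement gene C1qb had 39.1 ± 4.19 CPM in CLP liver and 39.5 ± 3.45 CPM in sham liver.

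Of 8 dendritic cell markers tested in lung, 1 was called higher (Ccr7, the receptor that guides dendritic cells to lymph nodes) and 3 lower. Zbtb46, a transcription factor of classical dendritic cells, had 36.0 ± 2.05 CPM in CLP lung and 51.5 ± 2.47 CPM in sham lung. Of 7 B cell markers tested in lung, 2 were called higher and 0 lower, and in liver none of the 8 had enough counts to be tested. Endothelial markers were mostly lower in lung, with 7 of 10 called lower and Ly6c1 the 1 called higher, and summed to 4496 to 4511 CPM after CLP and 5047 to 5396 CPM after sham. In liver 1 of 9 endothelial markers tested was called higher, the junction gene Cdh5 at 98.9 ± 12.2 CPM after CLP and 32.3 ± 3.19 CPM after sham, and 3 were called lower, among them the VEGF receptor gene Kdr at 5.19 ± 2.34 CPM after CLP and 45.8 ± 7.54 CPM after sham (SD, n = 3 each). These counts are from edgeR with Benjamini-Hochberg adjustment. By the same test, 23.9% of all genes were called higher and 24.9% lower in lung, and 21.4% and 21.0% in liver.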
